A study of Mus musculus with 60 samples.

Results

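The Zfp36l1 translocation hotspot is a 100 kb window of chromosome 12, chr12:81200000-81299999 in mm9, in which 1242 of 1219247 mapped junctions lay. Every junction that the deposited lists place in this window was taken as a member, from all 60 libraries. The window was chosen by its number of junctions in these same libraries, so its level, and how that level differs between backgrounds, are given as a description with no test. What was tested is whether 2 EZH2-directed compounds moved the level, the position or the strand of the junctions within a background. The gene name comes with the window. No mm9 annotation was used here, so no junction is assigned to an exon, an intron or a flank of the gene.

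The libraries were made by LAM-HTGTS, a linear-amplification method that reads the genomic places (junctions) to which the broken end of a fixed bait site has been joined. The bait site lies on chromosome 15. All cells were CH12F3, a mouse B-lymphoma line that can switch its antibody class, and all had been stimulated with TGF-β, IL-4 and an antibody to CD40 over 72 h. The 12 groups, given with their numbers of libraries, were AID-KO cells with valemetostat (3), tazemetostat (4) or DMSO (5), Lig4-KO cells, labelled Ligase4 KO, with the same additions (5, 5 and 5), AID_WT cells that also received idelalisib (5, 5 and 5), called WT+idelalisib here, and AID_WT cells without it, called WT (8, 5 and 5). Valemetostat and tazemetostat inhibit the histone methyltransferase EZH2, idelalisib inhibits the kinase PI3Kδ, and DMSO is the solvent. Doses and the number of knockout clones are not in the labels. Nothing in the labels tells separate cultures from repeat libraries, so the spread behind each p-value is that between libraries and may be technical.

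Activation-induced cytidine deaminase (AID) deaminates cytosines in the switch regions of the Igh locus and so starts class switching in B cells. It also acts, more rarely, on other transcribed genes, and the breaks that follow can be joined to other chromosomes. DNA ligase 4 seals breaks in classical non-homologous end joining. Without it, broken ends are joined by alternative pathways, often after their ends have been trimmed. Zfp36l1 encodes an RNA-binding protein of the tristetraprolin family, which uses paired CCCH zinc fingers to bind AU-rich elements of messenger RNAs and speeds their decay. In mouse B cells it acts with its relative Zfp36l2 in the control of proliferation during development.

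The promoter sequence of Zfp36l1 is shown because AID acts on transcribed genes, mostly near their starts, and because AGCT is the sequence at the core of the Igh switch repeats. The 250 bases before the start were taken from RefSeq, where the gene (RefSeq gene 12192) was found by its symbol. They are from GRCm38.p6, chr12:80113014-80113263, minus strand, written 5′ to 3′ with AGCT in capitals.
Zfp36l1 promoter: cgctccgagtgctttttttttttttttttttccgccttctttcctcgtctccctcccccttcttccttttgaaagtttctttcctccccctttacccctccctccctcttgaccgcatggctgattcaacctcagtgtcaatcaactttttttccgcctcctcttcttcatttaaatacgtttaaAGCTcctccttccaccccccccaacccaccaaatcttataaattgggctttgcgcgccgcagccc
AGCT, which reads the same on both strands, was found 1 time, its first base lying 65 bases before the start. Of 32851 RefSeq promoters of this length, 70.4% hold it, so it does not set Zfp36l1 apart. The junction positions are in mm9 and this sequence is in GRCm38.p6, so the junctions were not placed on it.

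The level of the hotspot is given as window junctions per 10000 genome-wide junctions, where genome-wide leaves out chromosomes 15 and Y, the mitochondrial genome and the immunoglobulin loci. The libraries held 4450 to 19122 genome-wide junctions, with 11269 to 19122 in Lig4-KO and 4450 to 14501 elsewhere. A count of 0 allows up to 3 junctions, or 1.57 to 6.74 per 10000 in a single library, and these limits cover counting error only. The DMSO libraries of the 4 backgrounds came from different sequencing runs, so background and run cannot be told apart in them. Windows were ranked on genome-wide junctions only, so those of the bait chromosome and the immunoglobulin loci were left out. By the number of junctions the hotspot was second of 23951 such windows that held any over all 60 libraries. In the 9 groups with AID its rank lay between 2 and 5.

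Without AID the hotspot was nearly empty. The 12 AID-KO libraries held 5 window junctions among 106137 genome-wide ones, and 8 of these libraries held none. In AID-KO the level was 0.737, 1.38 and 0 per 10000 with valemetostat (n = 3), 0, 1.51, 0 and 0 with tazemetostat (n = 4), and 0, 0, 0, 0 and 0.800 with DMSO (n = 5). WT DMSO libraries held 11.4, 21.1, 11.6, 11.4 and 6.35 per 10000. Every AID-KO library lay below every WT DMSO library. The means were 0.160 ± 0.358 in AID-KO DMSO and 12.4 ± 5.37 in WT DMSO (SD, n = 5 each), with 1 and 39 junctions in all.

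The 5 AID-KO junctions lay outside the densest 4 kb, 81210000 to 81213999, though 1 of them lay just below it, within the densest 10 kb. They stood at 81207495, 81209770, 81274601, 81294816 and 81294823, the nearest of them 3.23 kb from the densest 1 kb. The last pair belongs to a spot at 81294000 to 81294999 where 9 libraries held 1 junction each, all on the minus strand. In the densest 4 kb AID-KO had 0 junctions, which allows up to 0.283 per 10000 over the 12 libraries, whereas 975 junctions of the other backgrounds lay there. This 4 kb was located on all 1242 window junctions pooled, of which AID-KO gave 5, so its place reflects the other backgrounds. Outside AID-KO every library held at least 1 window junction.

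Lig4-KO cells had the highest level. In Lig4-KO DMSO it was 32.0, 37.9, 53.2, 25.8 and 35.0 per 10000, and each of these was above each WT DMSO value. The mean of 36.8 ± 10.2 was 2.97 times the 12.4 ± 5.37 of WT DMSO (SD, n = 5 each). WT+idelalisib DMSO libraries held 25.7, 15.6, 19.0, 42.4 and 25.1 per 10000, which gives 25.5 ± 10.3 (n = 5) and 2.06 times WT DMSO. Here the ranges overlapped, and the WT+idelalisib value was the higher in 23 of 25 pairs of libraries. The valemetostat libraries of these backgrounds shared 1 run, and there the ranges did not overlap, with 17.9 to 31.2 per 10000 in WT+idelalisib and 1.73 to 16.3 in WT.

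**Figure D1:**
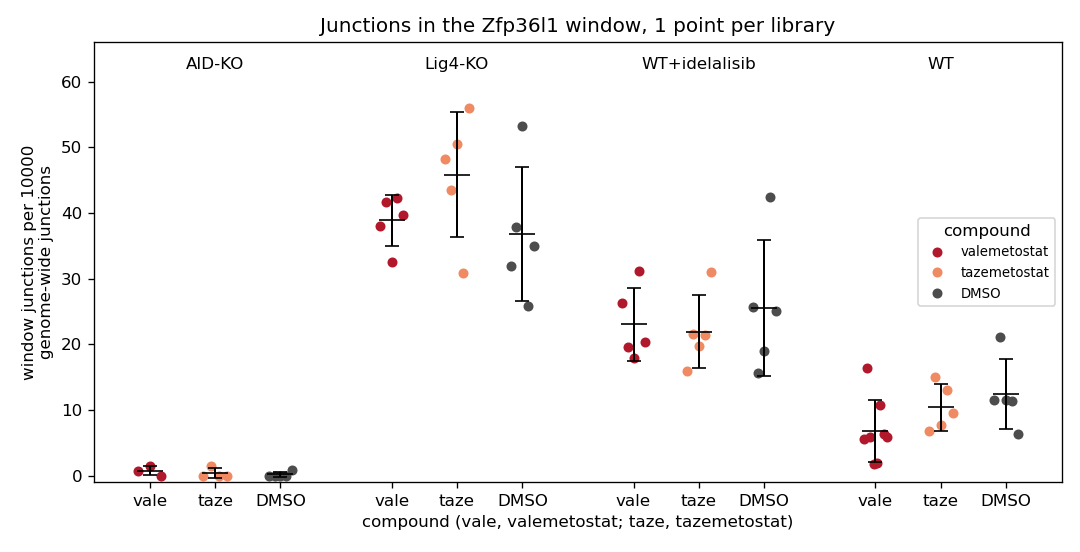
Window junctions per 10000 genome-wide junctions (y axis) in each library (points) by background and compound (x axis), with mean and SD as bars. AID-KO libraries lie at 0 to 1.51, Lig4-KO libraries at 25.8 to 56.1, WT+idelalisib at 15.6 to 42.4 and WT at 1.73 to 21.1.

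How far Lig4-KO stands above WT+idelalisib depends on what is counted in the denominator. Lig4-KO libraries held a larger part of their junctions around the bait. Per 10000 of all junctions, the level was 12.6 ± 2.82 in Lig4-KO DMSO, 16.0 ± 6.07 in WT+idelalisib DMSO and 7.50 ± 3.32 in WT DMSO (SD, n = 5 each). On this scale the mean of Lig4-KO lay under that of WT+idelalisib, and Lig4-KO stood 1.68 times above WT with 22 of 25 pairs higher. With junctions outside 1 Mb on each side of the bait as the denominator the values were 32.4 ± 8.93, 22.8 ± 9.13 and 11.1 ± 4.78. Both ratios to WT DMSO, 2.92 and 2.06, were then close to those of the genome-wide scale.

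Set against the Igh locus, the main target of AID, the hotspot was also largest without ligase 4. Per 1000 Igh junctions there were 80.6 ± 16.6 window junctions in Lig4-KO DMSO, 42.3 ± 16.2 in WT+idelalisib DMSO and 21.5 ± 8.70 in WT DMSO (SD, n = 5 each). Every Lig4-KO library again lay above every WT library, with 63.8 to 107 against 11.9 to 35.7. With 1 to 9 Igh junctions per library, AID-KO has too few for this ratio.

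**Figure D2:**
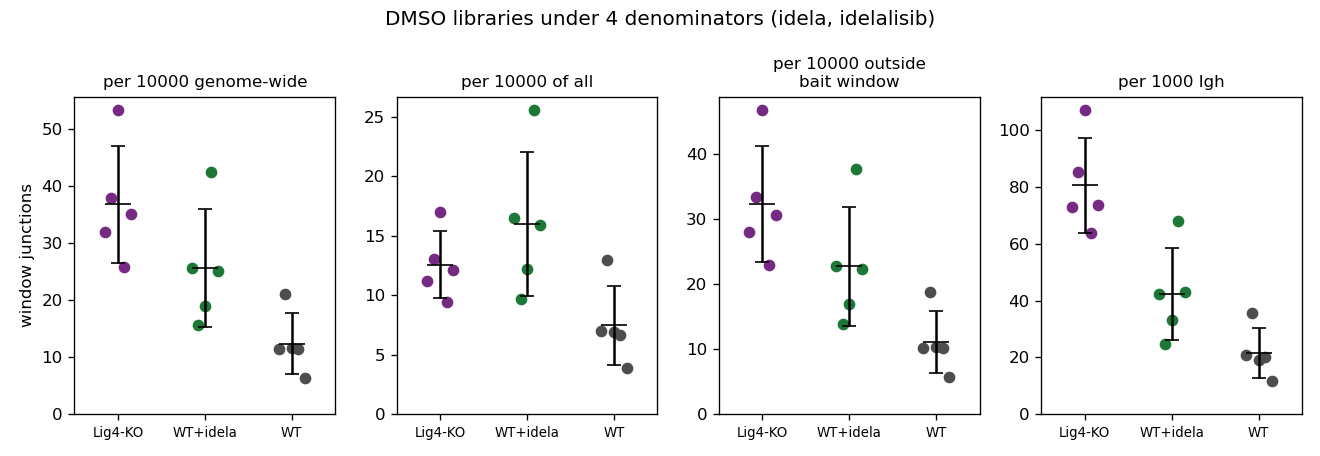
Window junctions in DMSO libraries of Lig4-KO, WT+idelalisib (idela) and WT (x axis) under 4 denominators (panels, y axes from 0), with points for libraries and bars for mean and SD. Lig4-KO has the highest mean in 3 panels, whereas per 10000 of all junctions WT+idelalisib has it, at 16.0 against 12.6.

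Ordered by mean level, the 12 groups ran from Lig4-KO with tazemetostat, valemetostat and DMSO, over WT+idelalisib with DMSO, valemetostat and tazemetostat, to WT with DMSO, tazemetostat and valemetostat, and last AID-KO with valemetostat, tazemetostat and DMSO. Neighbours in this order overlapped in range at 10 of 11 steps. The step with no overlap was from WT valemetostat, at 1.73 to 16.3 per 10000, to AID-KO valemetostat, at 0 to 1.38. At this step the 1.73 stood for 1 window junction and the 1.38 for 2. Besides this step, those larger than the SD of both neighbours were 11.2 per 10000 from Lig4-KO DMSO to WT+idelalisib DMSO and 9.56 from WT+idelalisib tazemetostat to WT DMSO.

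Within the window the junctions were packed into a few kilobases. The densest 1 kb, chr12:81213000-81213999, held 487 junctions or 39.2% of the window, seen in 46 libraries, and the densest 200 bp, from 81213200 to 81213399, held 178. The 3 bins of 1 kb below the densest one held 219, 171 and 98 junctions, so that 4 kb from 81210000 to 81213999 took 78.5%. Next came the bin from 81215000 to 81215999, with 40. Past this cluster a small second cluster at 81232000 to 81233999 held 37 junctions.

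The cluster did not run over the edges of the window. The lowest 10 kb inside the window held 71 junctions and the 10 kb below it 17, and the highest 10 kb inside held 9 and the 10 kb above it 5. Of the neighbouring windows of 100 kb, the one directly below held 234 junctions, 3 of them in AID-KO, with its own densest 1 kb 90.0 kb below that of the hotspot. The next one down and those above held 52, 26 and 26. In Lig4-KO this is 7.60 per 10000 in the window directly below and 0.641 in the window directly above, against 40.1 in the hotspot, all pooled over 15 libraries.

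Single positions recurred little. The 1242 junctions lay at 1036 combinations of position and strand, of which 884 were seen in 1 library, 152 in 2 or more and 5 in 5 or more. No library listed the same position and strand more than 1 time. The same held for all 550592 genome-wide junctions, so this is a property of the deposited lists and not of the window. The 5 recurrent ones were 81212861 (plus strand), 81213229 (minus), 81213233 (plus), 81213347 (plus) and 81213844 (plus), with 5 or 6 junctions each. The position 81213347 was seen in 6 WT+idelalisib libraries and in no other, and 81213844 in 6 Lig4-KO libraries and in no other.

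Pooled over libraries, the cluster reached further to the right in Lig4-KO than in cells with ligase 4. The 3 kb above the densest 4 kb, from 81214000 to 81216999, held 93 of 877 window junctions in Lig4-KO, 10.6% (exact 95% binomial interval 8.64 to 12.8), and all 15 libraries contributed. They held 4 of 253 in WT+idelalisib, 1.58% (0.432 to 4.0), and 3 of 107 in WT, 2.80% (0.582 to 7.98). As a mean of libraries with at least 5 window junctions the share was 10.5% ± 4.43 in Lig4-KO (SD, n = 15), 1.35% ± 2.42 in WT+idelalisib (n = 15) and 3.73% ± 6.79 in WT (n = 11). The lowest Lig4-KO library stood at 5.00% and the highest WT+idelalisib library at 6.67%, so these ranges overlapped. WT libraries ran from 0% to 16.7% and overlapped with Lig4-KO more widely, with only 3 junctions behind their values. The densest 4 kb took 74.7%, 91.7% and 82.2% of the window junctions in Lig4-KO, WT+idelalisib and WT. Within Lig4-KO the share of these 3 kb was not the same in all compound groups. It was 13.9% ± 4.94 with valemetostat, 9.91% ± 3.53 with tazemetostat and 7.64% ± 2.62 with DMSO (SD over libraries, n = 5 each), so the pooled value lies above that of DMSO alone. In WT+idelalisib DMSO it was 1.68% ± 2.42 (n = 5). These 3 kb were picked after the profile was seen, and neither the difference between backgrounds nor that between compounds was tested.

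**Figure D3:**
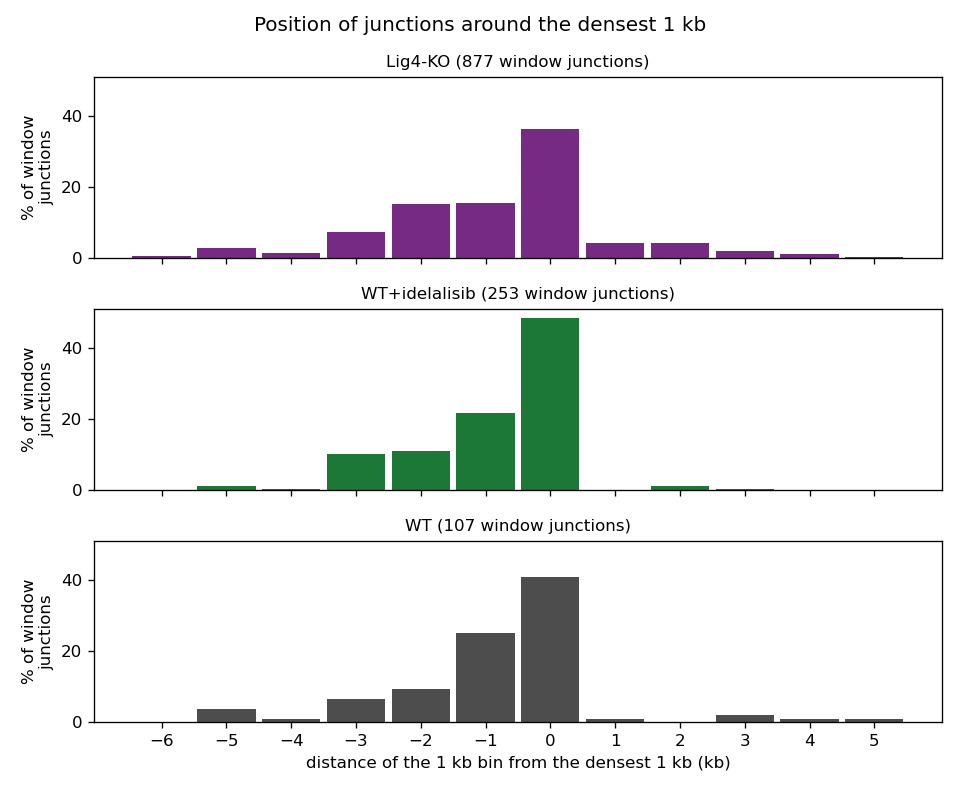
Percent of window junctions (y axis) in each 1 kb bin by its distance from the densest 1 kb (x axis, kb), for Lig4-KO, WT+idelalisib and WT with compounds pooled. In all 3 backgrounds the bins from -3 to 0 hold most junctions, and the bins from 1 to 3 are filled mainly in Lig4-KO (10.6% against 1.58% and 2.80%).

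Pooled over libraries, plus junctions outnumbered minus ones in Lig4-KO, and the balance of strands changed along the window. In Lig4-KO 59.7% of window junctions (exact 95% binomial interval 56.4 to 63.0) were on the plus strand as the files give it, against 50.2% (43.9 to 56.5) in WT+idelalisib and 56.1% (46.1 to 65.7) in WT. These intervals leave out the spread between libraries. Among libraries with at least 5 window junctions the share was 59.3% ± 7.34 in Lig4-KO (SD, range 45.7 to 71.1, n = 15). It was 50.9% ± 13.2 in WT+idelalisib (26.7 to 68.4, n = 15) and 54.7% ± 13.2 in WT (40.0 to 87.5, n = 11), so the ranges overlapped. Along the cluster of Lig4-KO the plus share was 29.2% in the lowest of the 4 dense bins, 45.9% in the next one up and 70.9% in the densest bin. Above it, 74 of 93 junctions were on the plus strand. In WT+idelalisib the same 4 bins had plus shares of 34.6%, 60.7%, 52.7% and 48.8%. In WT, with 7 to 44 junctions per bin, they were 28.6%, 40%, 81.5% and 52.3%, increasing over the lower 3 bins, as in Lig4-KO, and lower again in the densest bin.

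In Lig4-KO plus junctions lay to the right of minus junctions. Over the densest 10 kb the median position of plus junctions was above that of minus junctions in 15 of 15 Lig4-KO libraries, by 237.5 to 2180 bp with a median of 1233.5 bp. Of 14 WT+idelalisib libraries with at least 10 junctions there, 8 had plus above minus, with differences of -506 to 1215 bp and a median of 97.5 bp. Only 2 WT libraries had enough junctions, with differences of 146 and -225 bp. This measure was chosen after the data were seen and was not tested, and the Lig4-KO libraries hold more window junctions each (35 to 80) than those of WT+idelalisib (10 to 32).

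**Figure D4:**
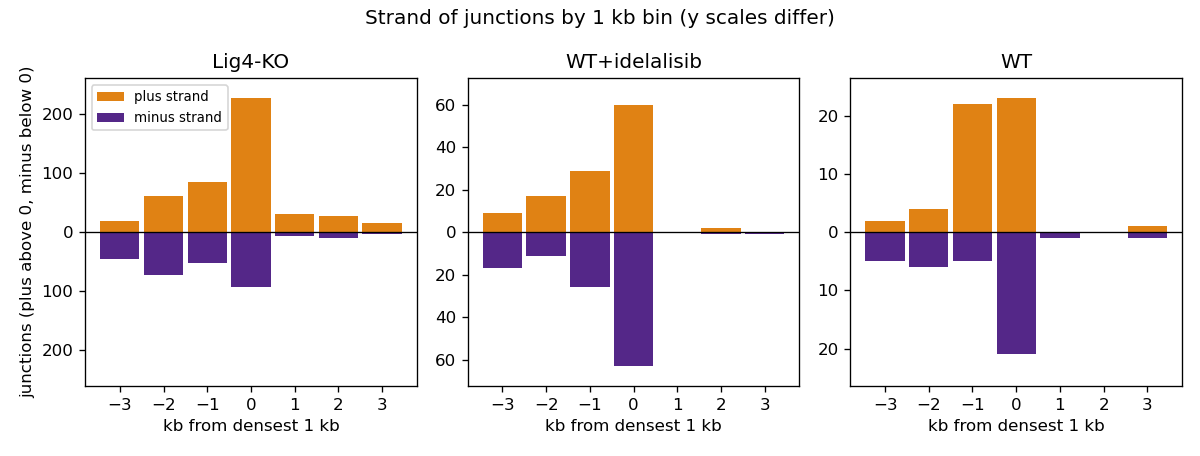
Number of junctions on the plus strand (above 0) and the minus strand (below 0) by distance from the densest 1 kb (x axis, kb), for Lig4-KO, WT+idelalisib and WT with compounds pooled and with different y scales. In Lig4-KO minus junctions outnumber plus ones in the bin at -3 (46 against 19) and plus outnumber minus at 0 (227 against 93), whereas WT+idelalisib has 60 plus and 63 minus at 0.

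The series compares translocations with and without inhibition of EZH2, and the 3 backgrounds with AID allow that comparison for this hotspot. In none of them did the level pass the test for a change with tazemetostat or valemetostat. Junctions per 100 kb window were fitted with limma voom over all 60 libraries, and p-values were adjusted by Benjamini-Hochberg over the 88 windows with a mean of at least 2 junctions per library. This test was tried on simulated data of the same size. There all 60 libraries had the rates of the DMSO group compared, with an assumed spread, and changes were increases only. The test found 48.5% of windows changed 2-fold in Lig4-KO with tazemetostat and 16.0% of those in WT with valemetostat, so changes of that size can be missed. At 4-fold it found 98.0% and 74.0%, and on average 3.34% and 10.7% of its calls fell on unchanged windows. The changed windows were picked at random, so these shares do not give the chance of missing a change, or a decrease, in the hotspot itself. The exact two-sided permutation tests below compare mean levels and were adjusted over 12 comparisons, 3 in each background. A single comparison of 5 against 5 libraries could reach no adjusted p below 0.0952 in them.

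In WT the hotspot was lower with valemetostat, without passing. The 8 valemetostat libraries ran from 1.73 to 16.3 per 10000 with a median of 5.81, and the 5 DMSO libraries from 6.35 to 21.1 with a median of 11.4. These levels rest on few window junctions, 1 to 8 per valemetostat library (31 in all) and 4 to 13 per DMSO library (39 in all). The median valemetostat library held 3, which is also the number that a count of 0 allows. Of 8 valemetostat libraries, 7 lay under the DMSO mean. The means were 6.79 ± 4.78 (SD, n = 8) and 12.4 ± 5.37 (n = 5). The fitted log2 change was -1.06 (95% interval -1.84 to -0.28, limma voom, adjusted p = 0.0917), and the exact permutation test gave p = 0.0769 (adjusted p = 0.571). In this comparison 5.68% of the 88 windows passed, and their median change was -0.39, so the median window leaned the same way. These windows were kept by their mean over all 60 libraries. Only 23 windows reached that mean in the WT libraries alone, so most of the 88 held few junctions in WT. Valemetostat and DMSO libraries came from different runs, and compound and run cannot be told apart here. The call changes with single libraries. It passed without WT DMSO replicate 5 (-1.25, limma voom, adjusted p = 0.0375) and without WT valemetostat replicate 2, which held the 16.3 (-1.24, adjusted p = 0.0367), where the exact permutation test also passed at -6.95 per 10000 (adjusted p = 0.0455). Without WT DMSO replicate 2, which held the 21.1, the fitted change was -0.86 (limma voom, adjusted p = 0.257) and the difference in level -3.40 per 10000, and without WT valemetostat replicate 5 the fit gave -0.79 (adjusted p = 0.261). It also passed in a fit of the WT libraries alone (-1.05, limma voom, adjusted p = 0.0413), which tested 23 windows and called 5 of them. Before adjustment its limma voom p was 0.00898, against 0.00794 in the main fit, so the pass came with the smaller number of windows.

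Tazemetostat in WT gave 6.74, 15.1, 7.62, 13.0 and 9.57 per 10000, against 11.4, 21.1, 11.6, 11.4 and 6.35 with DMSO. All 5 lay between the lowest and the highest DMSO library. The log2 change was -0.20 (95% interval -0.98 to 0.59, limma voom, adjusted p = 0.762; exact permutation p = 0.540), in a comparison in which 0% of windows passed. Between the compounds, valemetostat minus tazemetostat was -0.86 (-1.65 to -0.08, limma voom, adjusted p = 0.161), where 5.68% of windows passed, and these groups too were sequenced apart.

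In Lig4-KO, where all libraries shared 1 run and the counts were highest, tazemetostat libraries held 48.2, 43.6, 50.4, 30.8 and 56.1 per 10000, against 32.0, 37.9, 53.2, 25.8 and 35.0 with DMSO. The groups overlapped, with the tazemetostat value higher in 18 of 25 pairs. The means were 45.8 ± 9.52 and 36.8 ± 10.2 (SD, n = 5 each), a log2 change of 0.33 (95% interval -0.33 to 0.99, limma voom, adjusted p = 0.520; exact permutation p = 0.190). A fit of the Lig4-KO libraries alone gave 0.35 with a smaller p, 0.00724 before and 0.0733 after adjustment over its 337 windows (limma voom). In the main fit of all 60 libraries 9.09% of the 88 windows passed and the median change was 0.45, above the 0.33 of the hotspot. Valemetostat libraries held 38.1, 41.7, 32.6, 42.3 and 39.7 per 10000, a mean of 38.9 ± 3.89 (n = 5) and a log2 change of 0.11 (-0.55 to 0.77, limma voom, adjusted p = 0.863). This comparison had 2.27% of windows passing and a median change of 0.39. Valemetostat against tazemetostat gave -0.21 (-0.87 to 0.45, limma voom, adjusted p = 0.996), with 0% of windows passing.

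With idelalisib the level did not pass the test for either compound. Valemetostat libraries held 26.3, 19.6, 17.9, 31.2 and 20.3 per 10000, tazemetostat libraries 15.9, 21.5, 19.8, 21.5 and 31.0, and DMSO libraries 25.7, 15.6, 19.0, 42.4 and 25.1. All 3 groups overlapped, and the DMSO group held both the lowest and the highest of the 15 values. The log2 changes were -0.09 (95% interval -0.75 to 0.57) for valemetostat, where 1.14% of windows passed, and -0.17 (-0.83 to 0.49) for tazemetostat, where 0% passed (limma voom, adjusted p = 0.944 and 0.911). Valemetostat against tazemetostat was 0.08 (-0.58 to 0.74, adjusted p = 0.970), with 0% of windows passing. The 2 DMSO-based comparisons share their DMSO libraries, as they do in every background, and valemetostat was sequenced apart from the other groups.

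**Figure D5:**
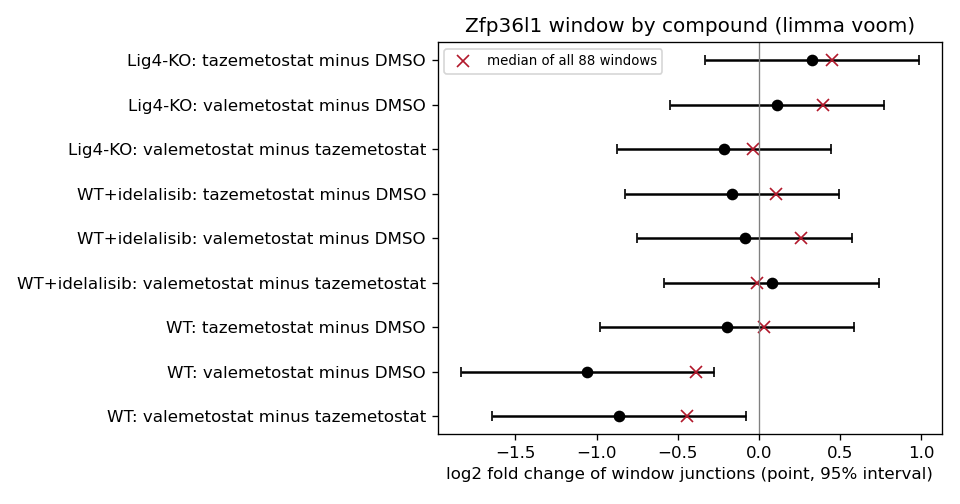
Fitted log2 fold change of the hotspot (points, with 95% intervals) for 9 comparisons within Lig4-KO, WT+idelalisib and WT (y axis), beside the median of all 88 windows (crosses). Of the 9 intervals, those of valemetostat against DMSO and against tazemetostat in WT exclude 0, and neither passed after adjustment over windows.

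The change with a compound was also compared between backgrounds. Relative to WT, the log2 change with valemetostat was higher by 1.17 in Lig4-KO (95% interval 0.15 to 2.19, limma voom, adjusted p = 0.121), where 10.2% of windows passed and the median over windows was 0.81, and by 0.97 in WT+idelalisib (-0.05 to 1.99, adjusted p = 0.292), where 2.27% passed and the median was 0.62. With tazemetostat the differences were 0.52 in Lig4-KO and 0.03 in WT+idelalisib (limma voom, adjusted p = 0.656 and 0.984), with 0% of windows passing in either. None passed for the hotspot. AID-KO, with 1 to 3 window junctions per group, allows no fold, and its comparisons of levels gave exact permutation p of 0.375 for valemetostat and 0.722 for tazemetostat against DMSO, and 0.657 between the compounds.

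The ratio of window junctions to Igh junctions was higher in Lig4-KO with both compounds, without passing after adjustment. Per 1000 Igh junctions the Lig4-KO valemetostat libraries held 121, 121, 117, 127 and 127 window junctions and the tazemetostat libraries 129, 125, 124, 91.6 and 136, against 73.0, 85.3, 107, 63.8 and 73.7 with DMSO. Every valemetostat library lay above every DMSO library, and tazemetostat was higher in 24 of 25 pairs. The means were 122 ± 4.56, 121 ± 17.1 and 80.6 ± 16.6 (SD, n = 5 each). This ratio was chosen after the data were seen, and the differences of 41.9 and 40.4 had exact permutation p of 0.00794, the smallest possible with 5 against 5, and 0.0159, or 0.0714 for both after adjustment over 9 comparisons. Igh junctions were fewer in these groups, 2437 and 2667 in all against 3174 with DMSO. Genome-wide junctions numbered 76981 and 71027 against 70486, and window junctions 299 and 324 against 254. With valemetostat the mean ratio was 1.52 times that of DMSO, but the mean level on the genome-wide scale only 1.06 times (38.9 against 36.8). Relative to genome-wide junctions, most of that rise therefore lay in fewer Igh junctions and not in the hotspot, and the Igh level itself was not tested. With tazemetostat these values were 1.50 and 1.25 times, so there the ratio moved with both. In WT the ratio was 30.4 with valemetostat (range 9.26 to 67.2, n = 8), 23.2 ± 7.44 with tazemetostat and 21.5 ± 8.70 with DMSO (n = 5 each), and the exact permutation p were 0.383 and 0.762.

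The share of window junctions in the densest 1 kb did not pass a test for change with the compounds either. The densest 1 kb held 36.3% ± 3.98, 34.3% ± 2.91 and 39.2% ± 9.21 of window junctions in Lig4-KO with valemetostat, tazemetostat and DMSO (SD, n = 5 each). With idelalisib the share was 48.4% ± 13.0 with DMSO (n = 5), and valemetostat and tazemetostat differed from it by 3.79 and 1.64 points. In WT, only libraries with at least 5 window junctions were used, giving 23.3% ± 25.2 (n = 3), 50.9% ± 26.0 (n = 4) and 28.0% ± 11.4 (n = 4). Over 9 comparisons the lowest exact permutation p was 0.171, for tazemetostat against DMSO in WT, a difference of 23.0 points with adjusted p = 0.833. These tests could hardly pass: the smallest exact permutation p is 0.00794 with 5 against 5 libraries and 0.0286 with 4 against 4, which for a single comparison among 9 is 0.0714 and 0.257 after adjustment. Wider places differed more in Lig4-KO. The share in the densest 2 kb with valemetostat minus that with DMSO was -9.33 points (exact permutation p = 0.0873, adjusted p = 0.429). The densest 4 kb held 69.0% ± 4.84, 76.4% ± 6.63 and 78.8% ± 7.27 with valemetostat, tazemetostat and DMSO (SD, n = 5 each), which was not tested.

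The share on the plus strand did not pass, under the same limits on the smallest p. It was 60.6% ± 8.52, 61.0% ± 6.72 and 56.3% ± 7.30 in Lig4-KO with valemetostat, tazemetostat and DMSO, and 49.8% ± 8.92, 56.0% ± 16.8 and 47.0% ± 14.2 with idelalisib (SD, n = 5 each). The lowest exact permutation p of its 9 comparisons was 0.325, for tazemetostat against DMSO in Lig4-KO, a difference of 4.76 points with adjusted p = 0.738. In WT 3 or 4 libraries per group had enough junctions for this share.

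The windows whose levels ran most alike over the 12 groups were found by the Pearson correlation of log2(mean level + 0.5) with that of the hotspot, among 87 other windows with a mean of at least 2 junctions. They are chr13:43800000-43899999 (r = 0.987), chr8:97200000-97299999 (0.980), chr18:75500000-75599999 (0.978), chr11:61400000-61499999 (0.968) and chr2:152600000-152699999 (0.956), all in mm9. All 12 points share their libraries between windows, and the median r over the 87 windows was 0.823, with 22 above 0.9. The window of chromosome 8 held 1544 junctions, more than the hotspot, and the other 4 held 203 to 510. In the hotspot's nearest match, on chromosome 13, the DMSO means were 0.436 per 10000 in AID-KO, 11.2 in Lig4-KO, 8.42 in WT+idelalisib and 5.87 in WT. Their spread was smaller than that of the hotspot, with 0.160, 36.8, 25.5 and 12.4. The order was the same, but this window was picked for its likeness over the 12 groups, so a shared order is largely built into the choice.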

How the data were processed

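The authors deposited 1 headerless junction list per library. Positions are in mm9 per the submitters' processing notes, and reads were paired and 250 bases long per the labels. The junction caller and the aligner were not given in the sources used here. Besides, the deposited lists carry a score of unstated meaning, which was not used, and the counting base of positions and the strand convention are not stated either. The window, its lists and its measures were chosen with earlier results of these data known. Igh was taken as 114400000 to 117299999 on chromosome 12, a round interval set from knowledge of the locus, as were Igk and Igl. The 6 sequencing runs were read from read names. No read name was in more than 1 library, and pairs of libraries of 1 group shared 0.604% to 5.53% of genome-wide junctions.

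Junctions per 100 kb window were tallied in Python 3.11.15 (numpy 2.4.6, pandas 2.3.3) and fitted with limma 3.58.1 in R 4.3.3, using voom with genome-wide junctions as library size. Rates and shares were compared by exact permutation, two-sided (scipy 1.17.1), with a threshold of 0.05 after Benjamini-Hochberg adjustment. Both were tested on simulated data. Shares per library needed at least 5 window junctions. Binomial intervals are Clopper-Pearson and cover counting error only. By the rule for names, the text gives the window, its 2 neighbours on each side, the 5 windows most like it, the 5 densest bins and every position seen in 5 or more libraries. Alternatives covered window size, filter, denominator, model, replicate block, run and each library left out, and the Igh denominator was added after seeing the data.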

Additional observations from a re-analysis of the deposited data

Results flagged for a closer look

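A single library stood apart from its group in 4 of 27 groups and measures looked at with Dixon's gap test. For continuous, normally spread values this test flags about 1 in 20 by chance, a rate that need not hold for such low counts. In AID-KO DMSO replicate 5 the level was 0.800 and in AID-KO tazemetostat replicate 2 it was 1.51 per 10000, each from 1 window junction where the other libraries of the group had 0. A single junction beside libraries with 0 is always flagged, so these flags follow from the low counts. In WT+idelalisib tazemetostat replicate 3, 26.7% of window junctions were on the plus strand, against 57.1% to 66.7% in the other 4. In Lig4-KO tazemetostat replicate 1, 39.3% of window junctions lay in the densest 1 kb, against 32.5% to 34.2% in the other 4.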

How the results depend on the processing

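No compound comparison of the hotspot passed as reported. Differences between backgrounds were not refitted with libraries left out, other windows or another library size, and no run held both groups of the valemetostat comparisons in WT or with idelalisib. In WT, valemetostat minus DMSO passed in a fit of WT alone (log2 -1.05, limma voom, adjusted p = 0.0413 over 23 windows) and with the replicate number as a block (-1.28, adjusted p = 0.0430). The 45 same-numbered pairs correlated at -0.253 to 0.197 in their deviations from group means. That check used windows with means from 2 junctions per library, so it cannot tell whether the numbers pair the libraries. The block changed no other call of the hotspot. With all windows above a mean of 0.5 junctions (6333 tested), valemetostat minus DMSO in WT was -1.02 (limma voom, adjusted p = 0.974). Leaving out 1 library gave -1.25 to -0.79 (adjusted p 0.0367 to 0.261) in the fit and -7.09 to -3.40 per 10000 in the level. Among all windows the calls of that comparison numbered 5, against 8 with the block and 1 with the 6333 windows, and those of tazemetostat minus DMSO in Lig4-KO 8, against 25 in a fit of Lig4-KO alone and 1 with all junctions as library size. None of the following sign changes passed a test, and their cause was not tested. With 200 kb windows, valemetostat minus tazemetostat with idelalisib was -0.0168. Per 10000 of all junctions, valemetostat minus DMSO in Lig4-KO was -0.0802. Per 10000 genome-wide junctions within 1 run, it was -0.0948 in AID-KO. Per 1000 Igh junctions, valemetostat minus tazemetostat was 1.47 in Lig4-KO and 7.28 in WT, and in WT tazemetostat and valemetostat minus DMSO were 1.64 and 8.91. For the densest place, 2 kb in place of 1 kb gave -5.82 points for valemetostat minus tazemetostat in Lig4-KO and -0.347 for tazemetostat minus DMSO with idelalisib, and a minimum of 3 junctions gave 28.2 for valemetostat minus DMSO in WT. With 1 library left out, the fitted log2 change crossed 0 in Lig4-KO for valemetostat (-0.00189 to 0.257), with idelalisib for tazemetostat (-0.315 to 0.0334), valemetostat (-0.24 to 0.11) and valemetostat minus tazemetostat (-0.0367 to 0.209), and in WT for tazemetostat (-0.392 to 0.00749). The level per 10000 did so in the same order at -0.627 to 6.22, -6.08 to 0.617, -4.95 to 1.75, -0.906 to 3.41 and -3.49 to 0.203, and in AID-KO for tazemetostat (-0.160 to 0.377) and valemetostat minus tazemetostat (-0.00814 to 0.706). The densest-place share crossed 0 with idelalisib for tazemetostat (-3.36 to 7.05 points), valemetostat (-3.63 to 10.2) and valemetostat minus tazemetostat (-5.27 to 8.52), and in WT for valemetostat (-18.0 to 7.05). The plus share did for valemetostat minus tazemetostat in Lig4-KO (-3.05 to 1.69), and for valemetostat with idelalisib (-1.21 to 8.08) and in WT (-5.96 to 5.29).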
